A study of Mus musculus with 6 samples.

Results

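The kainate receptor genes of the mouse are Grik1, Grik2, Grik3, Grik4 and Grik5, which encode the channel subunits GluK1 to GluK5, and Neto1 and Neto2, which encode the auxiliary subunits that bind the channel. These 7 genes were taken by name as a protein family, with no threshold on a measured value, from 37310 annotated genes of mm9, of which 22350 are protein-coding genes on the autosomes and the X chromosome. All 7 were found in the annotation and all 7 had enough reads for every comparison below, so no member was lost to a filter.

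Acetylation of lysine 5 of histone H4 (H4K5ac) was measured by ChIP-seq in the hippocampus of C57/BL6 mice aged 6 months. The fear-conditioned mice (FC) received foot shocks in a context during repeated training sessions and were tested for memory of that context before the tissue was taken, whereas CON mice, the controls, saw the same context but were never shocked. Each group had 1 library immunoprecipitated with the H4K5ac antibody, 1 mock library immunoprecipitated with IgG and 1 input library of genomic DNA, which makes 6 libraries without replicates. The mice of both groups carried no transgene or mutation that the labels name, and the tissue was whole hippocampus with all of its cell types. No spread between animals is known, so no test across samples was made, and the 95% intervals given here cover counting error only.

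Kainate receptors are tetrameric cation channels opened by glutamate. GluK1, GluK2 and GluK3 bind the agonist with low affinity and form channels by themselves, whereas GluK4 and GluK5 bind it with high affinity and reach the membrane only together with one of the other three. Neto1 and Neto2 are transmembrane proteins that slow the gating of the channel, and in the hippocampus kainate receptors are best known at the mossy fibre synapses onto CA3 pyramidal neurons and in interneurons. H4K5ac is a histone mark of open chromatin that is found at promoters and in the bodies of transcribed genes.

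The members are long genes with many introns. On mm9, Grik1 lies on the minus strand at chr16:87896441-88289947 and spans 394 kb, Grik2 lies on the minus strand at chr10:48819266-49508572 and spans 689 kb, and Grik3 lies on the plus strand at chr4:125167944-125391417 and spans 223 kb. Grik4 lies on the minus strand at chr9:42326218-42752576 and spans 426 kb. Grik5 is the shortest gene of the family at 62.5 kb, on the minus strand at chr7:25794872-25857388, and Neto2 spans 63.5 kb on the minus strand at chr8:88161136-88224653. Grik2 contains the annotated gene A730099G02Rik, Grik3 contains Ftl2 and Mir692-2a, Grik4 contains 9530085L02Rik, and the 5 kb upstream of Grik5 overlap Zfp574, so reads in those stretches cannot be assigned to one gene alone.

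The sequences at the start sites differed in base composition. In the 300 bases from 250 upstream to 50 downstream of the transcription start site (TSS), Neto2 had 55 CpG dinucleotides, Grik3 had 50 and Grik4 had 45, against a median of 11 over 22350 protein-coding genes. Grik2 had 25, Grik1 had 20, and Grik5 had 10 although its GC content was 72.0%. Of the motifs searched on both strands, the GC box GGGCGG was found in 43.5% of all such promoters and occurred 7 times at Grik3, 2 times at Grik5 and Neto2 and 1 time at Grik4 and Neto1, while the cAMP response element TGACGTCA (2.33% of promoters) and the E-box CACGTG (7.79%) were not found in this window at any of the 7 genes. The sequences below are those of Grik5 and Grik2, which had the highest H4K5ac densities over the 5 kb upstream of the TSS, and of Neto2, which had the most CpG. Over these 5 kb Neto2 had an H4K5ac density of 0.494 RPKM in FC and 0.551 RPKM in CON, near the medians of 0.557 and 0.545 RPKM over protein-coding genes. At Grik5 the 500 bp next to the TSS had 0.633 RPKM in FC and 0.501 RPKM in CON, where the medians were 0.570 and 0.501 RPKM. Its stretch from 4000 to 3500 bp upstream, outside the sequence shown, had 2.59 and 1.95 RPKM. The sequences are read 5′ to 3′ along each gene from the mm9 genome, with each CpG in capitals.
Grik5, chr7:25857339-25857638, minus strand: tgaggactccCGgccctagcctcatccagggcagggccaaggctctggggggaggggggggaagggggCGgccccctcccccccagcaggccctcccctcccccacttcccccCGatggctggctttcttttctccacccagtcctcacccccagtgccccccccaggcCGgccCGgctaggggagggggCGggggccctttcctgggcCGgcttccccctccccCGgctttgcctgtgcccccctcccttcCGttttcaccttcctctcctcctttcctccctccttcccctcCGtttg
Grik2, chr10:49508523-49508822, minus strand: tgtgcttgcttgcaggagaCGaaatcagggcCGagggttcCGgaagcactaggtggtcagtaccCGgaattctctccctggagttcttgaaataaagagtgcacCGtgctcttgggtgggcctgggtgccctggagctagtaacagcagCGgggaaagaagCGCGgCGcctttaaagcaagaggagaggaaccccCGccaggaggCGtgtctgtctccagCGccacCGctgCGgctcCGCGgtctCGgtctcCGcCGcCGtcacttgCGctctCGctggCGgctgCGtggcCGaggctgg
Neto2, chr8:88224604-88224903, minus strand: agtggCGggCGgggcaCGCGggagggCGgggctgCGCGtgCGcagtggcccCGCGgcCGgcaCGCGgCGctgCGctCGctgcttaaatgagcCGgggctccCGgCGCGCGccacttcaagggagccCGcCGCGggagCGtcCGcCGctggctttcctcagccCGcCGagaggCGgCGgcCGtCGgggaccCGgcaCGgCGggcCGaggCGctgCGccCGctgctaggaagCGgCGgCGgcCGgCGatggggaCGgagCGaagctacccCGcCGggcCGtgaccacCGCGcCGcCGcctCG

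The libraries held between 14549689 and 45673239 aligned reads, and 11.5% to 17.8% of them were copies beyond the first read at a position and strand. The bodies of the 7 genes cover 0.0745% of the genome and held 0.112% of the H4K5ac reads in both FC and CON, against 0.0782% and 0.0798% of the IgG reads and 0.0820% and 0.0806% of the input reads. The same shares for the bodies of all protein-coding genes are not given here, so these values do not set the family apart. The labelled tissue was checked with marker genes. H4K5ac exceeded IgG by more than 1.5-fold in the gene body for 6 of 6 tested markers of excitatory neurons in FC and 5 of 7 in CON, and for 4 of 4 and 3 of 4 markers of oligodendrocytes, where 58% and 53.8% of all protein-coding genes did so. Over input, 0 of 7 markers of excitatory neurons passed in FC and 3 of 7 in CON, beside 23.9% and 44.5% of all genes. Oligodendrocyte markers passed over input in 3 of 4 cases in each group, and astrocyte markers in 1 of 4 and 2 of 4. Inhibitory neuron and microglia markers passed over input in 0 of 3 cases in each group, and genes of other organs in 0 of 5. Endothelial markers passed over input in 0 of 2 cases in FC and 0 of 1 in CON. Over IgG, genes of other organs passed in 1 of 5 cases in FC and 0 of 5 in CON. Also over IgG, astrocyte markers passed in 2 of 4 and 3 of 4 cases, microglia markers in 2 of 3 and 1 of 3, inhibitory neuron markers in 2 of 3 and 0 of 3, and endothelial markers in 0 of 1 in each group.

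Grik5, Grik4 and Grik3 carried the most H4K5ac over their bodies, and Grik1 carried the least. Read density is given as RPKM, reads scaled by the length of the region and the depth of the library, with the exact Poisson interval. Grik5 had an H4K5ac density of 0.921 RPKM (0.879 to 0.964) in FC and 0.824 RPKM (0.787 to 0.863) in CON, beside IgG densities of 0.366 and 0.400 RPKM and input densities of 0.649 and 0.414 RPKM. Grik4 had 0.825 and 0.771 RPKM, and Grik3 had 0.726 and 0.661 RPKM. These 3 genes lay above the median of all protein-coding genes, which was 0.550 RPKM in FC and 0.542 RPKM in CON. Grik2 followed with 0.482 and 0.537 RPKM. Neto1 had 0.449 and 0.509 RPKM and Neto2 had 0.405 and 0.461 RPKM. Grik1 had 0.364 RPKM (0.353 to 0.375) in FC and 0.361 RPKM (0.351 to 0.371) in CON, beside IgG densities of 0.452 and 0.446 RPKM and input densities of 0.370 and 0.431 RPKM. Its IgG density was thus above its H4K5ac density in both groups, and that of Grik5 was below. The order of the 7 genes was the same in both groups, but the intervals of Neto1 and Neto2 overlapped in both and those of Grik2 and Neto1 overlapped in CON. In bulk tissue, fewer cells with the mark and less of the mark per cell cannot be told apart.

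**Figure D1:**
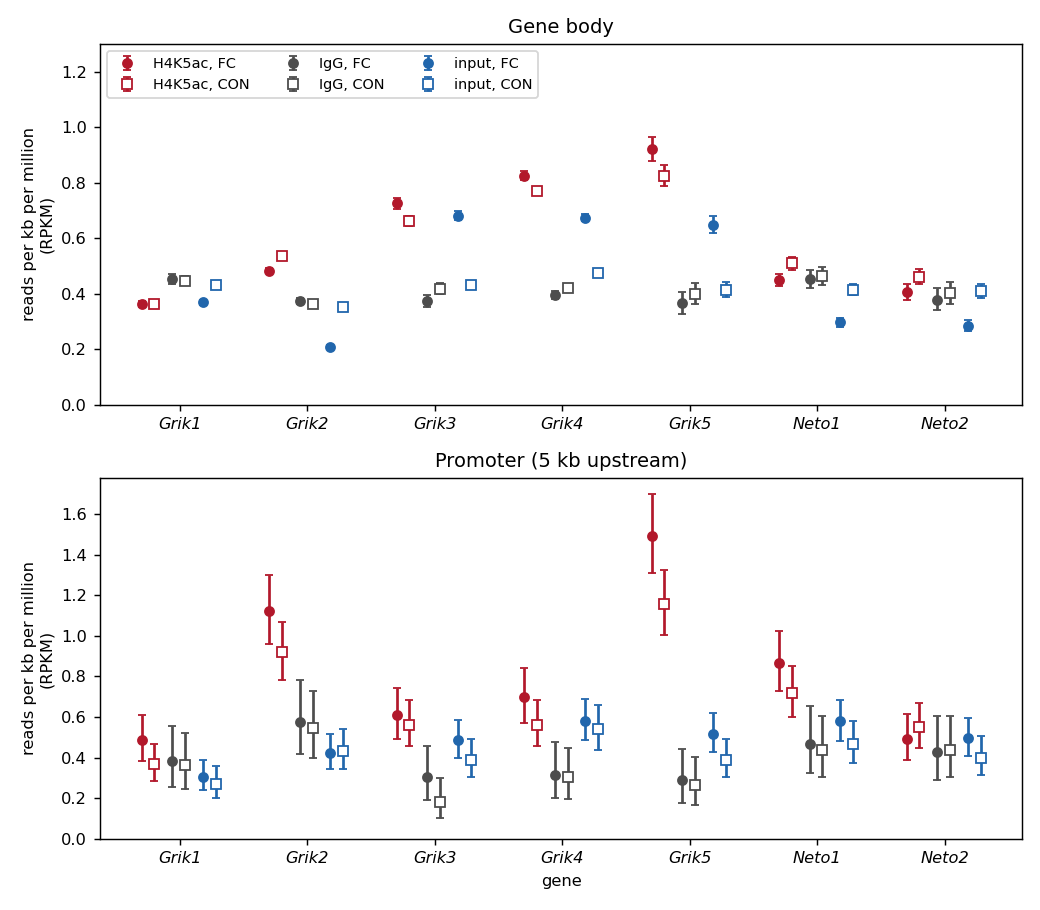
Read density (RPKM, vertical axis) of each kainate receptor gene in the 6 libraries, over the gene body (top) and the 5 kb upstream of the TSS (bottom). Filled circles are FC, open squares are CON, and bars are exact Poisson 95% intervals. Over the body, the H4K5ac points of Grik2 to Grik5 and Neto2 lie above their IgG points in both groups, and those of Grik1 lie below. Those of Neto1 lie just below in FC and above in CON.

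Relative to the mock library, the channel genes spread from depletion to more than 2-fold enrichment. Grik5 had 2.52 times (2.24 to 2.84) the depth-scaled IgG reads in FC and 2.06 times (1.85 to 2.30) in CON, which are log2 ratios of 1.33 and 1.04. On the log2 scale Grik4 had 1.06 and 0.88, and Grik3 had 0.96 and 0.66. Grik2, a low-affinity subunit, had 0.37 (0.32 to 0.42) in FC and 0.56 (0.51 to 0.61) in CON, and its CON value lay just under the threshold of 1.5-fold. Over the gene body the auxiliary subunits were close to the IgG level, with 0.10 and 0.20 for Neto2 and -0.01 and 0.14 for Neto1. Grik1 was below it in both groups, at -0.31 (-0.38 to -0.24) in FC and -0.30 (-0.37 to -0.24) in CON. Thus Grik3, Grik4 and Grik5, 3 of 7 genes, passed 1.5-fold in each group, where 58% of 17948 protein-coding genes passed in FC and 53.8% of 18070 in CON. The median of the 7 genes was 0.37 in FC and 0.56 in CON, and that of all tested genes was 0.73 and 0.64.

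GC content moved with this division. Grik3, Grik4 and Grik5 have 50.3%, 48.0% and 51.5% of G and C in their bodies, and Grik2, Neto1, Neto2 and Grik1 have 35.6%, 36.9%, 37.8% and 39.6%. Across protein-coding genes the Spearman correlation of GC content with the log2 ratio of H4K5ac over IgG in the body was 0.62 in FC (17947 genes) and 0.52 in CON (18070 genes), where all points share the same libraries. Genes of the same GC content as the 7 members had median ratios from -0.96 to 1.11 in FC and from -0.70 to 0.90 in CON. After subtraction of these medians, an alternative chosen after seeing the data, Grik2 was 1.33 above genes of its GC content in FC and 1.26 above in CON, and it alone passed 1.5-fold. The share of all genes past 1.5-fold after this subtraction is not given here. Grik5 was then at 0.22 and 0.14, Grik4 at 0.18 and 0.12, Grik3 at -0.14 and -0.22, and Grik1 at -0.56 and -0.58. The part of GC content in the enrichment was not tested.

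**Figure D2:**
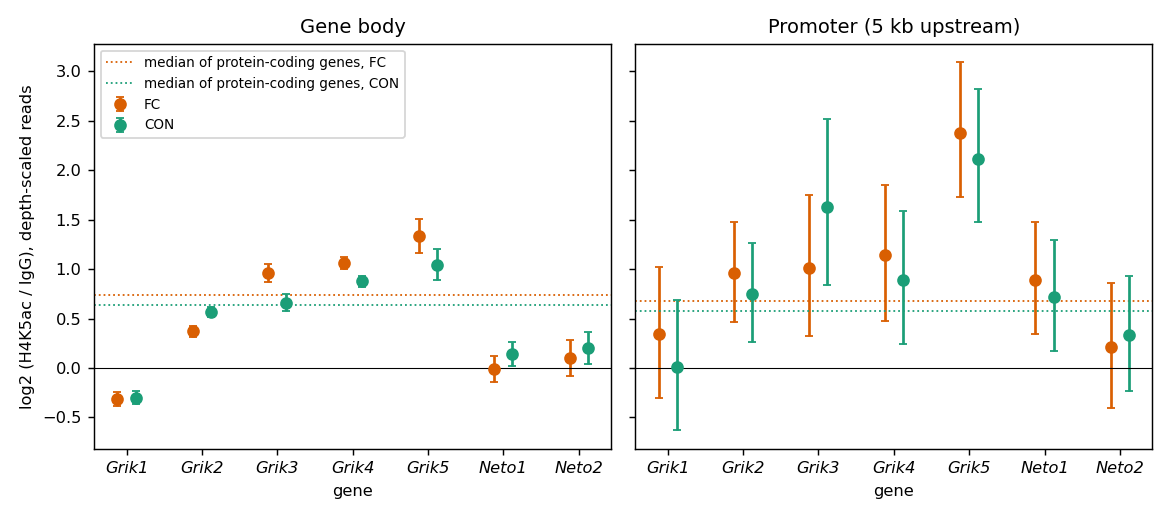
Log2 ratio of depth-scaled H4K5ac to IgG reads (vertical axis) for each gene over the gene body (left) and the 5 kb upstream of the TSS (right), in FC and CON, with exact binomial 95% intervals. Dotted lines are the medians of all tested protein-coding genes. Grik5 is highest in both regions, at 1.33 and 2.37 in FC, and Grik1 is the lowest gene over the body.

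The input library gave another order in FC. Grik2 had 2.30 times (2.23 to 2.38) the depth-scaled input reads in FC and 1.53 times (1.49 to 1.57) in CON. Its input density was 0.209 RPKM in FC and 0.351 RPKM in CON. Grik3 went the other way, with a log2 ratio of 0.09 in FC and 0.61 in CON, and its input density was 0.681 RPKM in FC and 0.432 RPKM in CON. Grik5 had 0.51 and 0.99, Grik4 had 0.29 and 0.70, Neto1 had 0.60 and 0.30, and Neto2 had 0.52 and 0.17. Grik1 had -0.02 and -0.25 and was the lowest in both groups. In FC 2 of 7 genes, Grik2 and Neto1, passed 1.5-fold over input, beside 23.9% of all genes, and in CON 4 of 7 genes, Grik2 to Grik5, passed, beside 44.5%. The median log2 ratio of all tested genes over input was 0.24 in FC and 0.52 in CON. The ratio of Grik2 was higher than that of 98.6% of them in FC and of 58.0% in CON.

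Upstream of the TSS, Grik5 and Grik2 had the highest H4K5ac densities of the family, and Grik5, Grik4 and Grik3 the highest ratios over IgG. In the 5 kb before the TSS, Grik5 had 236 H4K5ac reads and 21 IgG reads in FC, and 208 and 22 in CON. Its log2 ratios of 2.37 (1.73 to 3.09) in FC and 2.12 (1.48 to 2.82) in CON were higher than that of 98.9% and 99.0% of protein-coding genes. This stretch is shared with Zfp574. Grik2 had an H4K5ac density of 1.12 RPKM in FC and 0.918 RPKM in CON, with ratios of 0.96 (0.46 to 1.48) and 0.75 (0.27 to 1.26), and its IgG density there was 0.577 and 0.546 RPKM, above the medians of 0.357 and 0.376. Grik4 had ratios of 1.14 and 0.89, Neto1 had 0.89 and 0.72, and Grik3 had 1.01 in FC and 1.63 in CON, the latter over 15 IgG reads. The intervals of Grik1, at 0.34 and 0.01, and Neto2, at 0.21 and 0.33, included 0 in both groups. Grik2 to Grik5 and Neto1 passed 1.5-fold over IgG in each group, 5 of 7 genes, where 53.9% of all genes passed in FC and 49.8% in CON. Less the median of promoters of the same GC content, Grik5 was at 0.77 and 0.81 and Grik2 at 0.61 and 0.40, and Grik3 was at -0.49 and 0.28 and Grik4 at -0.06 and -0.10. Over input, Grik3 and Grik4 did not pass 1.5-fold upstream in either group. Grik4 had 0.26 (-0.12 to 0.63) in FC and 0.05 (-0.36 to 0.47) in CON, and Grik3 had 0.32 and 0.53. Grik5 had 1.53 and 1.57, Grik2 had 1.40 and 1.08, and Grik1 had 0.67 and 0.44. Neto1 had 0.58 and 0.62, and Neto2 had -0.004 and 0.46. The medians of all tested genes over input were 0.22 and 0.46.

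Most of the genes were denser in H4K5ac reads than the intergenic DNA around them. Gene bodies were compared with the intergenic sequence in the 50 kb beyond the promoter and the 50 kb beyond the gene end, both sides together. The ratio used the H4K5ac library alone, without IgG or input. Grik2 had a log2 ratio of body over flanks of 1.17 (1.05 to 1.28) in FC and 1.23 (1.13 to 1.33) in CON. Neto1 had 0.81 and 0.86. Grik1 had 0.43 and 0.47, Grik3 had 0.66 and 0.55, and Grik5 had 0.62 and 0.52. Grik4 had 0.46 and 0.28, and Neto2 had 0.01 and 0.14. The flanks of Grik5 and Grik4 held only 19295 and 19673 bp of intergenic sequence. In FC 6 of 7 genes exceeded their flanks by 25%, all but Neto2, beside 52.8% of protein-coding genes, and in CON 5 of 7, all but Grik4 and Neto2, beside 52.5%. Of protein-coding genes of 50 kb or more, as all 7 are, 59.8% did so in FC and 62.4% in CON.

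Within the genes the mark was not spread evenly. Grik2 fell along its first parts, from a log2 ratio over IgG of 0.91 (0.75 to 1.07) in FC and 0.92 (0.78 to 1.07) in CON in part 1 of 10 equal parts of its body, counted from the TSS, to 0.06 (-0.12 to 0.24) and 0.20 (0.04 to 0.36) in part 7. The intervals of these parts did not overlap. Part 10 had -0.04 (-0.20 to 0.13) in FC, while in CON it had 0.43 (0.26 to 0.59), above part 7. The stretch of 205 kb between its start sites had 0.77 in FC and 0.84 in CON, and the 479 kb downstream of its last start site had 0.15 and 0.41. Grik3 went the other way, with an H4K5ac density of 0.663 RPKM in FC and 0.614 RPKM in CON in the 169 kb upstream of its inner start site and 0.922 and 0.807 RPKM in the 54.5 kb downstream, over IgG densities of 0.368 and 0.417 and of 0.387 and 0.420 RPKM. In Grik1 part 3 was above IgG, at 0.29 (0.08 to 0.51) in FC and 0.27 (0.07 to 0.47) in CON, and part 1 was below, at -0.62 and -0.69. Grik4 lay between 0.51 and 1.38 in all 10 parts in both groups.

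**Figure D3:**
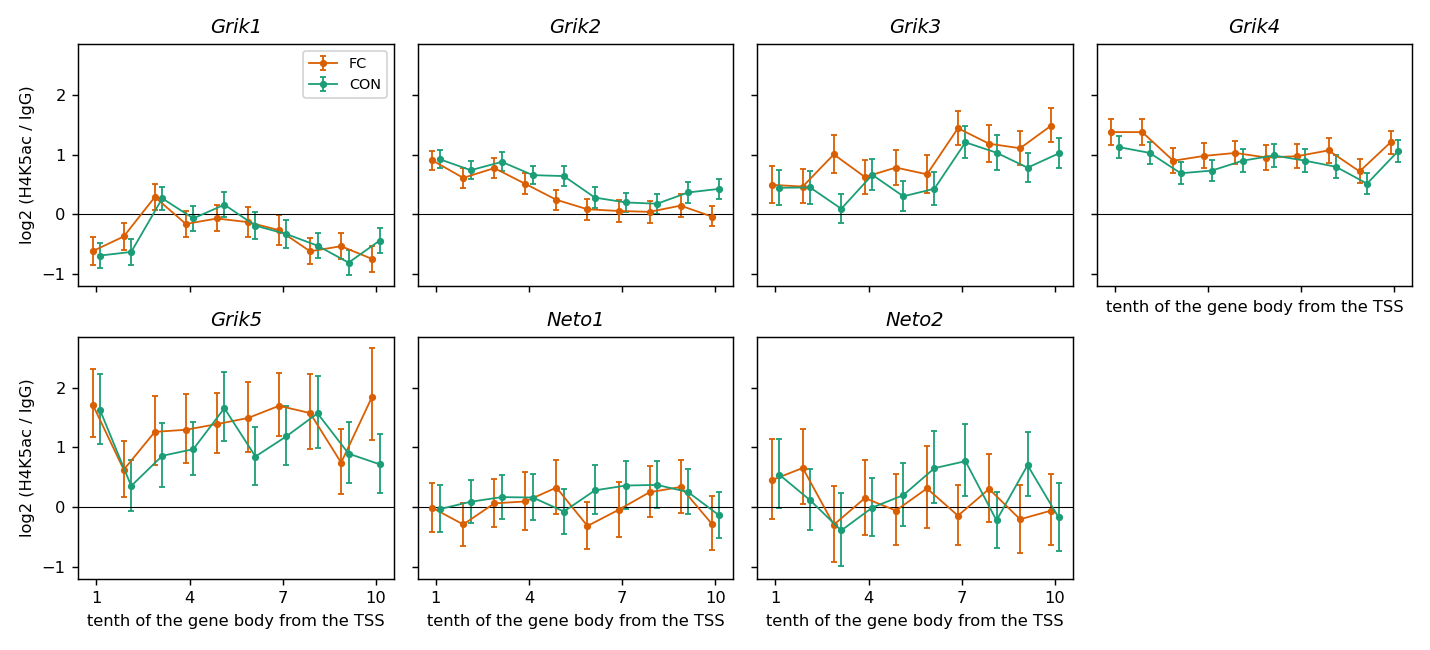
Log2 ratio of depth-scaled H4K5ac to IgG reads (vertical axis) in 10 equal parts of each gene body, counted from the TSS (horizontal axis), in FC and CON, with exact binomial 95% intervals. Grik2 falls from 0.91 in part 1 to 0.06 in part 7 in FC, and Grik4 stays above 0 throughout.

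Around individual start sites the counts were small. Within 1 kb on either side of the first TSS, Grik4 had 63 H4K5ac and 5 IgG reads in FC and 40 and 8 in CON, with a log2 ratio of 2.54 (1.24 to 4.21) in FC and an interval from 0.08 to 2.50 in CON. Grik5 had 52 and 5 reads in FC and 58 and 6 in CON, with ratios of 2.26 and 2.15. At Grik2 the first TSS had 1.23 and 1.48, and the start site 5.36 kb downstream had 1.64 (0.83 to 2.57) and 2.05 (1.05 to 3.22). Its innermost site, 210 kb from the first, had 0.35 and 0.41 with intervals that included 0. The first TSS of Grik1 had -0.68 (-1.65 to 0.31) and -0.76 (-1.57 to 0.08). At Grik3 the inner start site had 1.43 and 1.55 over IgG, and 0.39 (-0.09 to 0.88) and 1.52 (0.80 to 2.29) over input. The outer one had 0.10 (-1.37 to 1.77) in FC and 2.27 (0.24 to 5.40) in CON over IgG. It held 14 and 21 H4K5ac reads in all, and 6 and 2 IgG reads. The inner start site of Grik4 had -0.42 in FC, with an upper bound of 0.43, and 1.36 (0.46 to 2.38) in CON. It held 34 and 67 H4K5ac reads, a log2 ratio of FC over CON of -0.79 (-1.43 to -0.18). IgG went the other way with 21 and 12 reads, and input densities there were 0.799 RPKM in FC and 0.676 RPKM in CON. The share of inner start sites of all genes with such a ratio is not given here.

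**Figure D4:**
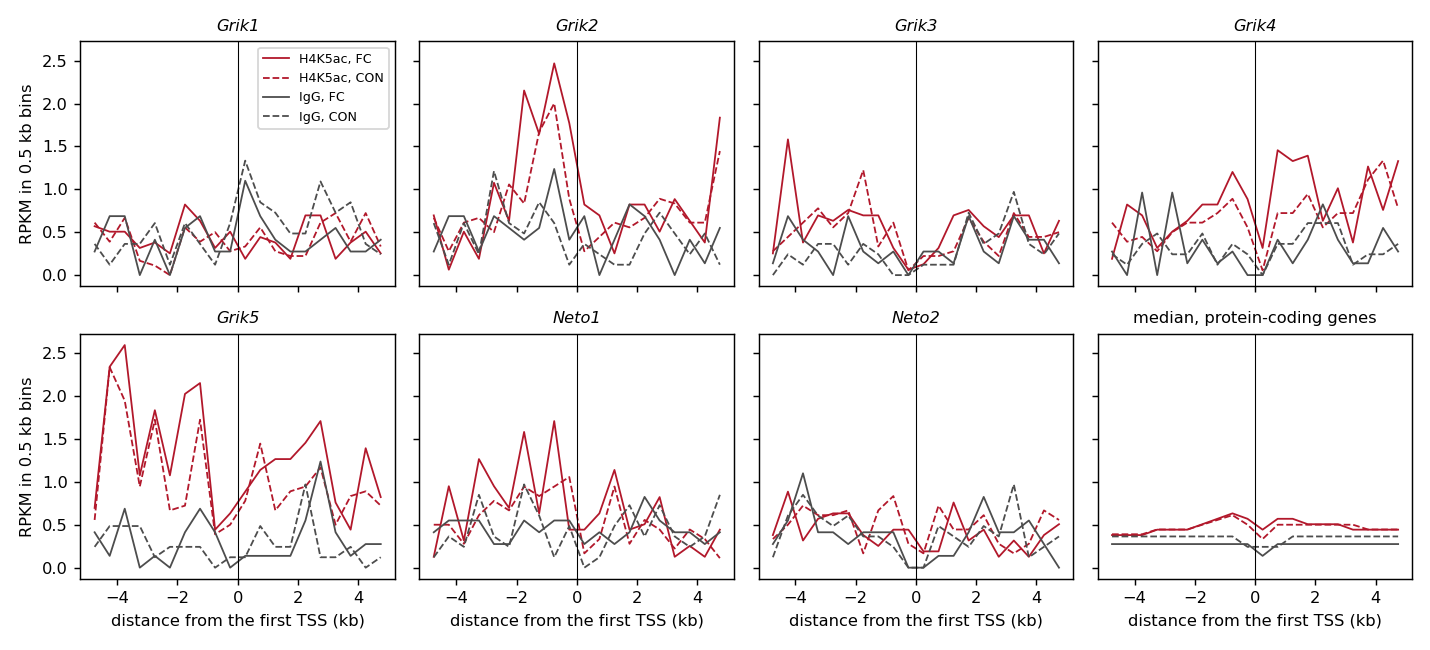
Read density (RPKM, vertical axis) of H4K5ac and IgG in bins of 500 bp within 5 kb of the first TSS (horizontal axis) of each gene, with solid lines for FC and dashed lines for CON, and the median of all protein-coding genes in the last panel. In FC the H4K5ac density upstream of Grik2 reaches 2.47 RPKM and that upstream of Grik5, in the 5 kb that overlap Zfp574, reaches 2.59 RPKM.

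Windows of 1 kb divided the family in the same way. They hold the same reads as the gene bodies and are not separate support for that division. Of windows with at least 10 reads in the 2 libraries, 78.7% passed 1.5-fold over IgG in Grik5 in FC and 72.6% in CON. The shares were 71.8% and 65.8% in Grik4 and 67.9% and 58.3% in Grik3. Grik2 had 42.6% and 49.4%, Neto1 had 26.5% and 25.2%, Neto2 had 26.3% and 33.3%, and Grik1 had 15.6% and 17.1%. Over all members 859 of 1818 windows passed in FC and 870 of 1856 in CON, which is 47.2% and 46.9%, beside 49.4% and 47.4% of the windows of all protein-coding genes. Neighbouring windows belong to the same gene and are not replicates.

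The densest window of each gene, with 1 read kept per position and strand, lay upstream of the TSS in Grik2, Grik5 and Neto1 and in an intron in the other genes. At Grik5 it was chr7:25861001-25862000, 4.11 kb upstream in the 5 kb that overlap Zfp574, with 64 H4K5ac reads in FC and 62 in CON over 3 and 8 IgG reads. At Grik2 it was chr10:49509001-49510000, 0.929 kb upstream, with 46 and 57 H4K5ac reads over 12 and 12 IgG reads. At Grik4 it was chr9:42353001-42354000, far inside the gene, with 49 and 56 reads over 6 and 7, and at Grik3 it was chr4:125379001-125380000 with 48 and 56 over 11 and 12. Grik1 reached 24 and 32 reads at chr16:88112001-88113000, and another of its windows held the same total. At Neto2 the window chr8:88179001-88180000 held 20 and 25 reads over 8 and 10. All these windows were picked for their H4K5ac reads, so their counts beside IgG are not support for enrichment. With both groups together, the densest window held 126 H4K5ac reads at Grik5 and 103 at Grik2, where the median windows held 52 and 29.

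Between FC and CON, no gene body of the family was 25% higher or 20% lower, which is the threshold used for this comparison. Grik5 had a log2 ratio of FC over CON in H4K5ac of 0.16 (0.07 to 0.25), Grik3 had 0.14 (0.08 to 0.19) and Grik4 had 0.10 (0.06 to 0.14). Grik2 had -0.15 (-0.19 to -0.12), Neto1 had -0.18 (-0.28 to -0.09), Neto2 had -0.19 (-0.32 to -0.05), and Grik1 had 0.01 (-0.05 to 0.07). Thus 0 of 7 genes passed as higher, beside 8.99% of 18350 protein-coding genes, and 0 of 7 as lower, beside 3.08%. All 7 are longer than 50 kb, and of 4809 protein-coding genes of 50 kb or more 1.27% were higher and 1.23% lower. Beside those shares, 0 of 7 does not set the family apart. The median of the family was 0.01 and that of all genes 0.04.

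GC content also moved with the order of these ratios. For all genes but Grik1, the input libraries differed in the same direction as H4K5ac and by more. The input log2 ratios of FC over CON were 0.66, 0.50 and 0.65 for Grik3, Grik4 and Grik5. They were -0.74, -0.48 and -0.53 for Grik2, Neto1 and Neto2. Grik1 had -0.22 in input, beside 0.01 in H4K5ac. Across all protein-coding genes the Spearman correlation of GC content with the FC over CON ratio was 0.41 for H4K5ac (18350 genes), 0.86 for input (19227 genes) and -0.17 for IgG (16377 genes), where the points share the same pair of libraries. After subtraction of the median of genes with the same GC content, the 7 H4K5ac ratios lay between -0.08 for Neto2 and 0.08 for Grik1. After subtraction of the input ratio Grik2 had 0.59 and Grik3 had -0.52, and 6 of the 7 genes, all but Grik1, changed sign. The part of GC content in the difference between the groups was not tested.

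**Figure D5:**
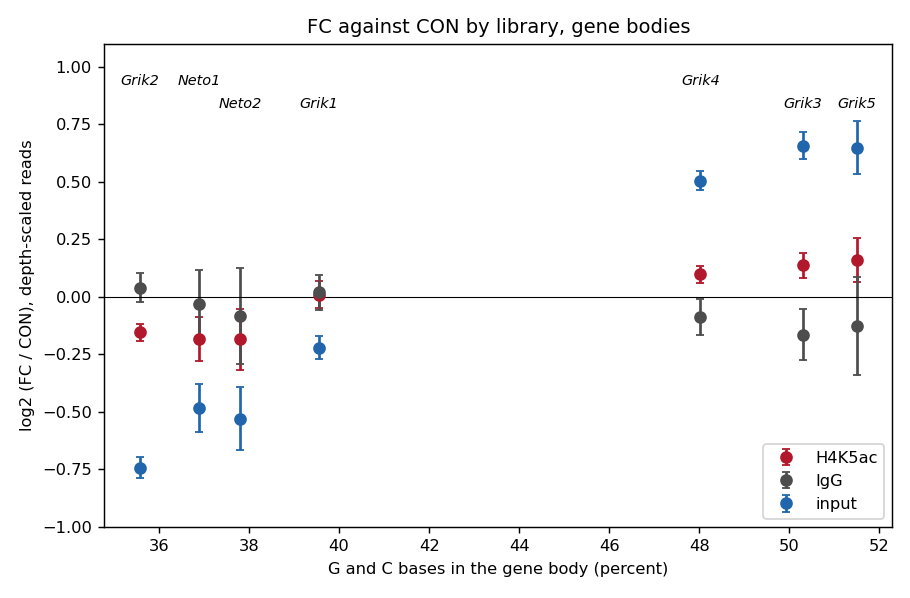
Log2 ratio of depth-scaled reads in FC over CON (vertical axis) against the percent of G and C bases in the gene body (horizontal axis) for the 7 genes, in the H4K5ac, IgG and input libraries, with exact binomial 95% intervals. The input points run from -0.74 at Grik2 to 0.66 at Grik3, and the H4K5ac points lie between -0.19 and 0.16.

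In the 5 kb upstream of the TSS, Grik1 and Grik5 were more than 25% higher in FC, 2 of 7 genes beside 17.5% of 21101 protein-coding genes, and 0 of 7 were 20% lower, beside 10.3%. Grik5 had 0.37 (0.09 to 0.64), the sole interval that did not include 0, and its input ratio there was 0.41 (-0.03 to 0.86). Grik1 had 0.41 (-0.08 to 0.91) from 77 and 66 reads. Grik4 had 0.31, Grik2 had 0.29, Neto1 had 0.27 and Grik3 had 0.11, and Neto2 had -0.16 (-0.60 to 0.29). Which genes passed depended on the setting. Within 1 kb on either side of the TSS, Grik4 had 0.84 (0.25 to 1.45) and Grik2 had 0.64 (0.17 to 1.12), Grik5 had 0.03, Grik1 had -0.24, Grik3 had -0.40 and Neto2 had -0.70. Input was also denser in FC there, at 0.372 RPKM beside 0.211 in CON for Grik4 and 0.689 beside 0.296 for Grik2. The log2 ratio of H4K5ac over input was 1.42 in FC and 1.40 in CON for Grik4, and 1.08 and 1.65 for Grik2. In that window 36.3% of all genes were 25% higher in FC and 12.4% were 20% lower. Over the 5 kb upstream, after subtraction of the input ratio, Grik5 had -0.04, Neto1 had -0.03 and Grik3 had -0.21.

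The other ionotropic glutamate receptors and the partners of kainate receptors give the setting of these values. Of all protein-coding genes, 58% passed 1.5-fold of H4K5ac over IgG in the gene body in FC and 53.8% in CON. Of the NMDA receptor subunit genes, 5 of 7 passed in FC and 3 of 7 in CON, with medians of 0.78 and 0.54. Of the AMPA and delta receptor subunit genes, 1 of 6 and 2 of 6 passed, with medians of 0.45 and 0.46. Between FC and CON, 0 of 7 and 0 of 6 of these genes were 25% higher or 20% lower over the body, beside 8.99% and 3.08% of all protein-coding genes. Of the 16 listed genes for scaffold, trafficking and synaptic partners, 8 of 15 tested passed in FC and 9 of 15 in CON, with medians of 0.80 and 0.73. In CON the highest were Pick1, a PDZ protein that binds receptor tails, at 1.46, and Dlg4, the scaffold PSD-95, at 1.40. The lowest were Grip1, another PDZ scaffold, at 0.10, and C1ql3, a secreted synaptic organiser, at 0.14. Between FC and CON, 1 of the 16 partners was 25% higher over the body and 0 were 20% lower.

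The gene bodies with the most similar levels over the 6 libraries came from outside the family. By Euclidean distance of log2 RPKM over the 6 libraries, the nearest protein-coding gene was Fgf20 for Grik1 (0.08), Glcci1 for Grik2 (0.15), Zfp94 for Grik3 (0.10), Col15a1 for Grik4 (0.08), Zfp516 for Grik5 (0.08), Adss for Neto1 (0.10) and Cntn4 for Neto2 (0.13). Within the family, Grik4 and Grik5 were closest to each other at 0.28, and Neto1 and Neto2 at 0.35. Outside the family, 543 genes were nearer to Grik4 than Grik5 was, and 695 were nearer to Grik5 than Grik4 was. With so many genes searched, these counts do not show that the members are unlike each other.

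Exons, which are short, gave wide intervals. The exons of Neto1, which lies on the plus strand at chr18:86564344-86671289 and spans 107 kb, had log2 ratios over IgG of 0.44 (-0.27 to 1.21) in FC and 0.60 (-0.14 to 1.40) in CON, and those of Grik5 had 2.06 (1.23 to 3.01) and 1.56 (0.88 to 2.32). The introns of Grik5 had 1.29 and 1.01, within those intervals. In FC the introns of Grik3, at 0.94, and of Grik4, at 1.05, lay below the exon intervals of both genes, whose upper bounds were 2.12 and 2.47, and those of Grik1, at -0.30, lay above the exon interval of -1.82 to -0.49. In CON the introns of Grik3, Grik4 and Grik1, at 0.65, 0.87 and -0.31, lay within their exon intervals. The introns of Grik2, at 0.55 in CON, lay below its exon interval of 1.00 to 2.08, and in FC, at 0.37, within that of -0.22 to 0.62. Over input in FC, the exons of Grik3 and Grik4 had 0.01 and 0.24 and their introns 0.10 and 0.29, while Grik1 had -1.15 in exons and -0.01 in introns.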

How the data were processed

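Chromatin of mouse hippocampus was analysed in 6 ChIP-seq libraries, H4K5ac, IgG and input for FC and CON. Samples were grouped by their labels. According to the methods, 3 hippocampal samples per group were cross-linked, and 1 library per group and antibody was used here. SOLiD reads had been aligned to mm9 by the authors, who used Bioscope and deposited 1 line per aligned read with a score, its mapping quality, which is not a count. Reads were counted per region from these records and scaled by library totals, so precision follows the depth of 14549689 to 45673239 reads.

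Genes came from the GENCODE annotation of mm9. A gene body ran from the first to the last annotated base, the promoter was the 5 kb upstream, and a read overlapping by 1 base was counted. Ratios have exact binomial and densities exact Poisson intervals of 95%, which cover counting error only. Regions needed 50 reads (bodies), 20 (promoters) or 10 (windows of 1 kb) in the libraries compared. Enrichment was set at 1.5-fold, a difference between groups at 25% higher or 20% lower, and one from flanks at 25% higher. Likeness used log2 of RPKM plus 0.05. Named genes were the 7 members, the nearest gene to each, and the partners with the highest and lowest ratios over IgG in CON. The members and lists were chosen with earlier results of these data known. Counting was tested on simulated data. Python 3.11.15, NumPy 2.4.6, SciPy 1.17.1 and matplotlib 3.10.9 were used.

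As alternatives, reads were limited to 1 per position and strand or to a score of at least 30, and the others were read midpoints, scaling outside windows dense in input, bodies without the first 5 kb or without shared stretches, pooled IgG, promoters of 2 kb, 1 kb on either side of the TSS, flanks of 20 kb, windows of 2 kb, and subtraction of the IgG ratio, the input ratio or the median at equal GC content. For ratios over IgG the last of these was added after seeing the data.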

Additional observations from a re-analysis of the deposited data

Results flagged for a closer look

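The body of Neto1 had opposite signs in the groups, with a log2 ratio of H4K5ac over IgG of -0.011 (-0.14 to 0.12) in FC and 0.14 (0.02 to 0.26) in CON. The difference between the groups was not tested, as each had 1 library, and the intervals overlap.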

How the results depend on the processing

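No paired analysis was possible because each group had 1 library per antibody and no result came from a test, and no replicate could be left out. Less the median at the same GC content, an alternative chosen after seeing the data, 1 gene body passed 1.5-fold over IgG in each group, and 2 promoters in FC and 1 in CON. Of the values past 1.5-fold, Grik3 changed sign over the body, at -0.142 in FC and -0.223 in CON, and upstream at -0.489 in FC, as did Grik4 upstream, at -0.064 and -0.098, and Neto1 upstream in CON, at -0.052. Over input in FC the count was 1 with scaling outside windows dense in input. For these counts over IgG and input, the shares of all genes under the same setting are not given here. Between FC and CON over the body, 2 genes were higher and 3 lower less the input ratio, beside 9.40% and 43.0% of all genes, whose median was then -0.26. Upstream, genes higher in FC numbered 1 with 1 read per position and strand (15.8% of all genes), 4 with a score of at least 30 (19.3%), 4 with promoters of 2 kb (27.7%), 1 less the IgG ratio (35.4%), 0 less the input ratio (17.5%) and 1 less the GC median (13.4%). Genes lower numbered 2 with promoters of 2 kb (16.1%), 2 within 1 kb of the TSS (12.4%), 1 less the IgG ratio (21.0%) and 1 less the input ratio (39.3%). Of the FC over CON ratios past the threshold upstream, Grik1 changed sign, at -0.244 within 1 kb of the TSS, and Grik5, at -0.042 less the input ratio. Of 518 values of single genes under an alternative, 32 had another sign than the reported value, 7 of them gene-body and 8 promoter ratios of FC over CON. The cause was not tested. Depth limits the smallest regions, and the window at the first TSS of Grik3 held 2 IgG reads in CON.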
